A study of Homo sapiens with 6 samples.

Results

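The genes described here are the metallothioneins MT2A, MT1E, MT1F, MT1G, MT1M and MT1X, together with MTF1 and SLC30A1, the transcription factor and the zinc exporter that act beside them. They were picked by gene symbol around the fall of MT2A in si_GRB2 libraries. The comparison of si_GRB2 with si_NC therefore chose the set, and its values are given for these genes as a description, with a standard error. How many of them passed the limits used for all genes is counted beside the share of all genes that did, and supports nothing. Of the 8 genes named, 6 were found among the 30327 genes of the count table, and all 6 had enough reads to enter the fit across 15801 genes. MT1E and MT1M are not analysed here.

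RNA was sequenced from SK-BR-3, an established HER2-overexpressing breast cancer cell line, in 3 libraries of a control group (si_NC) and 3 of a treated group (si_GRB2). Cells of si_NC carry the genotype label control, and the methods give them a nontargeting siRNA. The si_GRB2 libraries are named so in their descriptions, and the methods give 1 siRNA sequence against GRB2. The titles and genotype labels of the same libraries name GRB2 overexpression, and so do the methods where they list the sequenced groups. The paper itself reports a knockdown, shown by RT-PCR and Western blot. GRB2 averaged 126 ± 2.89 CPM in si_NC but 28.5 ± 0.957 CPM in the libraries labelled si_GRB2 (SD, n = 3 each), so its reads go against the overexpression label. CPM are counts put on a common library size with the TMM factors of edgeR, and unlike FPKM they are not divided by gene length. No source used here says whether the 3 libraries of a group came from separate cultures, so the errors cover the spread between libraries, which may be technical. The methods give a time after transfection for RT-PCR and Western blot and do not tie it to the sequenced RNA.

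Metallothioneins are small cysteine-rich proteins that hold zinc, copper and cadmium in the cytoplasm. Free zinc binds the zinc fingers of MTF1, which then attaches to metal response elements, short motifs in the promoters of metallothionein genes and of SLC30A1 (ZnT1), a transporter that moves zinc out of the cell. MT2A is an abundant metallothionein of epithelial cells, and its promoter is also a textbook target of AP-1 and of glucocorticoid receptors.

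The promoters are shown for their matches to the metal response element. Whether any match acts in these cells was not tested. Each sequence gives the 250 bases before the gene start, 5′ to 3′ on the strand of the gene, from RefSeq (GRCh38.p14). Capitals mark the core of the metal response element, searched as TGCACNC or TGCGCNC on both strands. The window of MT2A is chr16:56608334-56608583 on the plus strand, that of MT1X is chr16:56682220-56682469 on the plus strand, and that of SLC30A1 is chr1:211579162-211579411 on the minus strand.
MT2A: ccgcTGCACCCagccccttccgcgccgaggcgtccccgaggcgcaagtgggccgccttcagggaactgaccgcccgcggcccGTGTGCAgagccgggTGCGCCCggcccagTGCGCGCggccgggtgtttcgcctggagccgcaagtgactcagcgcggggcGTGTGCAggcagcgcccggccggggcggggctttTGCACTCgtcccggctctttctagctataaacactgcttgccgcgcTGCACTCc
MT1X: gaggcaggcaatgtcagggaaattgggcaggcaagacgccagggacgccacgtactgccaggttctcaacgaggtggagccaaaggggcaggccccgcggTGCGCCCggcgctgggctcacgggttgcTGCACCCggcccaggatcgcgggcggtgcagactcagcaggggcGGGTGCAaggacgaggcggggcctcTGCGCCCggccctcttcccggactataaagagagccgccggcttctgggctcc
SLC30A1: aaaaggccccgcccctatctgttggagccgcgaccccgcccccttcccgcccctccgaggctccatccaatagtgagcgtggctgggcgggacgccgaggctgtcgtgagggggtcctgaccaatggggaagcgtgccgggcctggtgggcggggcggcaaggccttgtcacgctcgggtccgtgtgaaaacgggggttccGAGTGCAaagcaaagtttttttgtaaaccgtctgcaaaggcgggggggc

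The MT2A window held 7 matches to the metal response element, the MT1X window 4 and the SLC30A1 window 1. Of 34796 promoter windows of this length, 24.8% held at least 1 match, 0.368% at least 4 and 0.0316% at least 7. The last share stands for 11 promoters, and MT2A and MT1H were the 2 metallothioneins among them. Of the metallothionein genes, only MT1B, MT1H, MT1X, MT2A and MT4 had a window in this set. The window of MTF1 (chr1:37859593-37859842, minus strand) held 0 matches, and MT1F and MT1G had no window to search. The MT2A window also held 1 match to the AP-1 element (TGANTCA, either strand), at bases −104 to −98, which MT1X, SLC30A1 and MTF1 did not hold and which 6.59% of all windows hold. A TATA box, searched as TATAAA on the strand of the gene, lay at bases −29 to −24 of MT2A and −30 to −25 of MT1X, and 6.84% of all windows hold one. The MT2A window is rich in G and C (73.2%, against a median of 58% over all windows). Among the 6713 windows within 5 percentage points of that content, 0.0745% held as many matches to the metal response element.

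**Figure D1:**
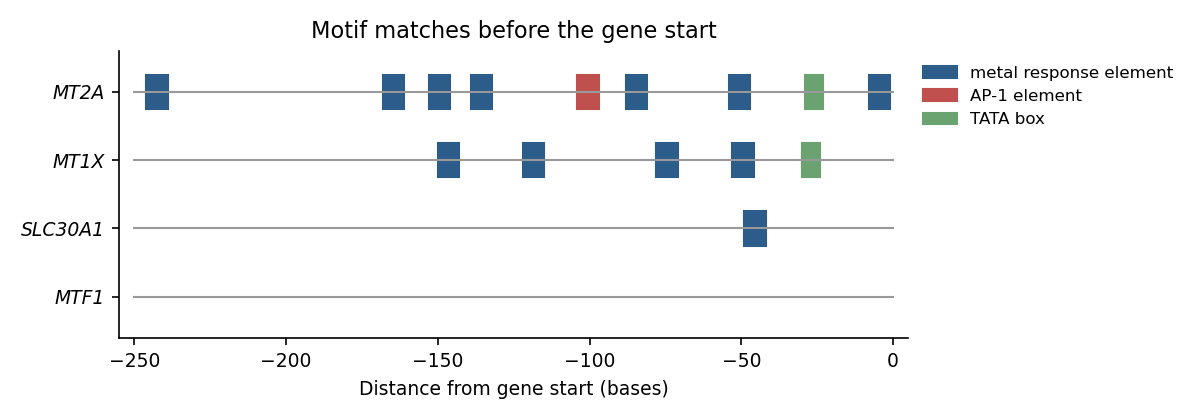
Motif matches in the 250 bases before the gene start of MT2A, MT1X, SLC30A1 and MTF1. The x axis is the distance from the gene start in bases, and boxes mark metal response elements (blue), AP-1 elements (red) and TATA boxes (green). MT2A has 7 blue boxes, MT1X has 4, SLC30A1 has 1 and MTF1 has 0.

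Reads counted on genes ran from 24810378 to 28532480 per library, which gives MT2A at least 505 reads in each library but MT1F and MT1G at most 26. The markers fixed for this cell line were present, with ERBB2 at 3415 to 4229 CPM. Those of other cell types were at or near 0, with PTPRC, PECAM1 and DCN at no more than 0.0785 CPM and COL1A2 at no more than 0.321 CPM, except COL1A1 at 3.71 to 5.31 CPM. ESR1 lay between 0.856 and 1.51 CPM. Of the 6 epithelial and HER2 markers, ERBB2 was higher in si_GRB2 by a log2 fold change of 0.24, and GRB7, EPCAM, KRT8, KRT18 and KRT19 were lower, at most by 0.55 on the log2 scale (KRT18). Their part in the values below was not tested, and in bulk RNA fewer cells with a transcript and less transcript per cell cannot be told apart.

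MT2A took most of the metallothionein reads and was lower in si_GRB2. MT2A (ENSG00000125148.7, chromosome 16 of GRCh38 from 56608584 to 56609497, plus strand) stood at 54.2, 56.0 and 57.4 CPM in si_NC replicates 1 to 3 and at 24.4, 24.5 and 19.9 CPM in si_GRB2 replicates 1 to 3. The highest si_GRB2 library thus stayed well below the lowest si_NC library, and the replicates of each group lay close together. The means were 55.8 ± 1.61 and 22.9 ± 2.59 CPM (SD, n = 3 each). This is a level 2.43-fold lower, a log2 fold change of −1.28 (standard error 0.06). With each library left out in turn it stayed between −1.33 and −1.19.

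MT1X, the second metallothionein by reads, was lower by less. MT1X (ENSG00000187193.9, chromosome 16 from 56682470 to 56684196, plus strand) had 350, 338 and 338 reads in si_NC and 231, 281 and 205 reads in si_GRB2. After scaling, the si_GRB2 libraries lay at 8.10 to 10.2 CPM, and all 3 were below the si_NC libraries. The log2 fold change was −0.45 (standard error 0.09), from 12.6 ± 0.615 to 9.17 ± 1.07 CPM (SD, n = 3 each). That is a level 1.37-fold lower, short of the 1.5-fold limit used for calls.

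MT1F and MT1G are metallothioneins of the same cluster and lay near the lower end of what could be measured. MT1F (ENSG00000198417.7, chromosome 16 from 56657731 to 56660698, plus strand) had 21, 20 and 26 reads in si_NC and 10, 14 and 15 reads in si_GRB2. Its log2 fold change was −0.71 with a standard error of 0.29. MT1G (ENSG00000125144.14, chromosome 16 from 56666730 to 56668065, minus strand) had 22, 21 and 21 reads in si_NC and 12, 14 and 4 reads in si_GRB2. Its log2 fold change was −1.02 with a standard error of 0.36. In both genes every si_GRB2 library was below every si_NC library. The size for MT1G leaned on si_GRB2 replicate 3, the library with 4 reads, and was −0.66 without it.

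**Figure D2:**
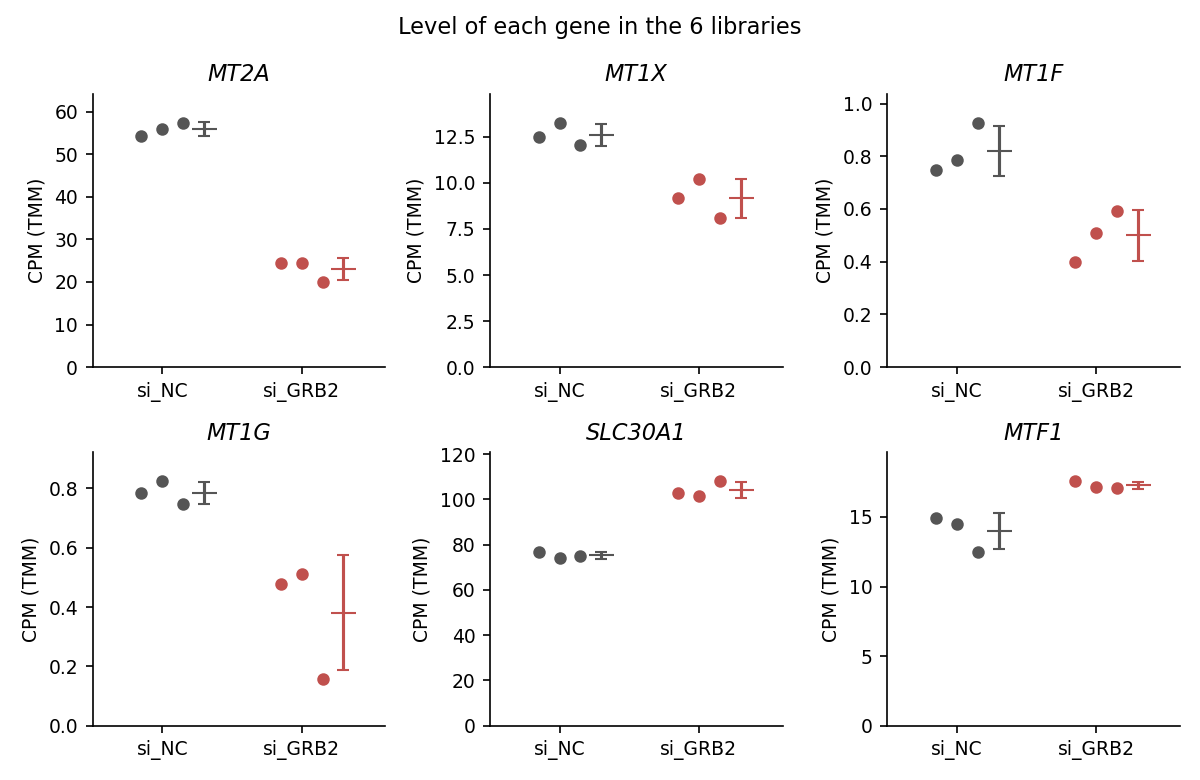
Level of the 6 genes in each library, in CPM after TMM scaling (y axis, from 0), with si_NC in grey and si_GRB2 in red. Points are libraries, in the order of replicates 1 to 3, and the bar beside them is the mean with its SD. In MT2A, MT1X, MT1F and MT1G all red points lie below all grey points, and in SLC30A1 and MTF1 all red points lie above them.

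Of the 6 genes, 4 were lower and 2 higher in every si_GRB2 library than in every si_NC library. Groups that do not overlap were found in 42.3% of all genes tested. A gene was called changed when its fold change passed 1.5 in either direction with an adjusted p under 0.01 in edgeR, which held for 2.52% of all genes (0.829% higher, 1.69% lower) and for 1 of the 6, MT2A. All 4 genes lower without overlap are set against 21.2% of all genes, and both genes higher without overlap against 21.1%. Leaving the size aside, 4 of the 6 and 20.5% of all genes had an adjusted p under 0.01 (30.6% of all genes under 0.05). Since the same comparison chose the genes, nothing is read from these counts.

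Summed as a family, metallothionein reads were lower in si_GRB2 and were split differently between genes. The 10 metallothionein and metallothionein pseudogene rows of the count table summed to 68.3, 71.0 and 71.3 CPM in si_NC and to 34.6, 35.8 and 29.0 CPM in si_GRB2. Metallothioneins without a row, MT1E and MT1M among them, are in neither this sum nor the shares below. The ratio of the means was −1.08 on the log2 scale, and −0.50 when MT2A was left out of the sum. MT2A made up 79.3%, 78.9% and 80.5% of the metallothionein reads in si_NC and 70.5%, 68.5% and 68.9% in si_GRB2. Exact binomial 95% intervals, which cover counting error only, ran from 76.9% to 82.2% over the si_NC libraries and from 65.4% to 73.5% over the si_GRB2 libraries. Since the set was chosen around the fall of MT2A, nothing is read from whether these intervals overlap. The share of MT1X moved the other way, from 18.0 ± 0.929% to 27.7 ± 1.04% (SD, n = 3 each). As MT2A and MT1X hold nearly all these reads, a lower share of MT2A raises that of MT1X. The level of MT1X itself was lower in si_GRB2, at 9.17 against 12.6 CPM. There were 4.44 ± 0.283 reads of MT2A per read of MT1X in si_NC and 2.50 ± 0.134 in si_GRB2 (SD, n = 3 each).

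**Figure D3:**
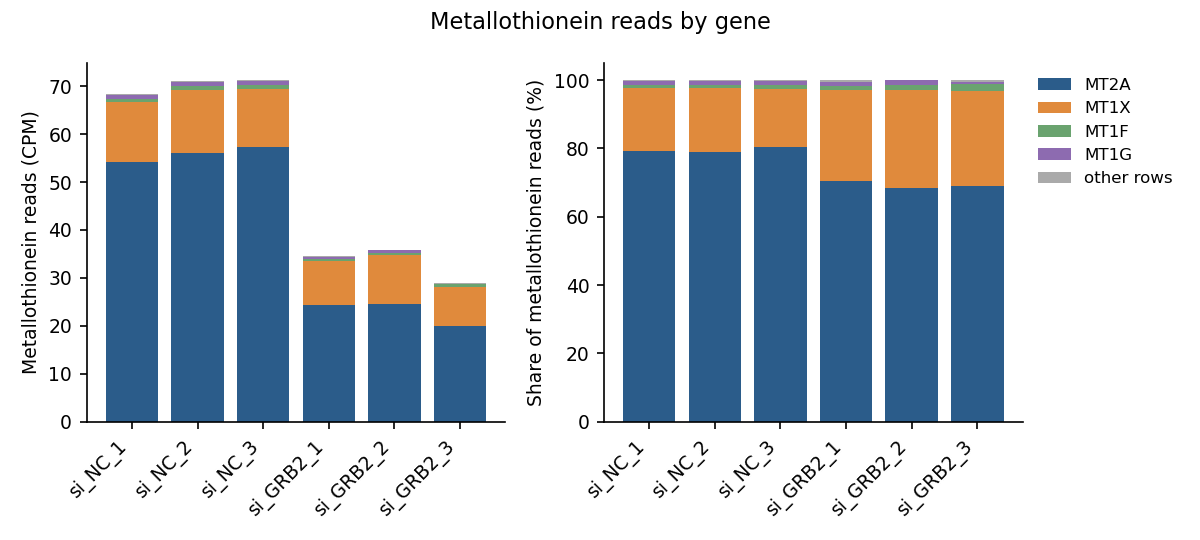
Metallothionein reads of each library, as CPM (left) and as a share of the reads on all metallothionein rows of the count table in percent (right). Colours stand for MT2A, MT1X, MT1F, MT1G and the other metallothionein rows together. The si_NC bars reach 68.3 to 71.3 CPM and the si_GRB2 bars 29.0 to 35.8 CPM, and the mean MT2A share is 79.6% of reads in si_NC and 69.3% in si_GRB2 (n = 3 each).

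The other 6 metallothionein rows held few reads. MT1A had 7 reads over all 6 libraries, the pseudogenes MT1XP1 and MT1P1 had 5 each, MT4 had 2, and MT1H and the pseudogene MT1JP had 1 each. None of these passed the filter on low counts. MT1H, whose promoter window held 8 matches to the metal response element, had 1 read, and MT2A, with 7 matches, had 6346. Whether the number of matches bears on the level was not tested.

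Metallothionein mRNAs resemble one another, and a read that fits more than one gene is lost when unique mapping is required. Aligned over their whole length, the 4 mRNAs shared from 74.1% (MT1F and MT1X) to 79.3% (MT1F and MT1G) of positions. In the mRNA of MT2A (401 bases), 0 of 327 windows of 75 bases occurred in a transcript of another gene in GENCODE 44. The same held for 0 of 351 windows in MT1F. In MT1G it was 6.55% of windows of 75 bases, shared with MT1X and its pseudogene, and 0 of 261 windows of 150 bases. In MT1X it was 36.1% at 75 bases and 6.67% at 150 bases, the latter shared with an overlapping noncoding transcript on the same strand, which is not analysed here. The methods give paired reads of 150 bases before cleaning. Windows were compared with transcripts and not with genome positions, so the 36.1% joins stretches shared with MT1G and the pseudogene to those of the overlapping transcript. A read in that overlap has a single place in the genome, so unique mapping alone would not drop it. Counts of MT1X are thus less certain than those of MT2A, as reads of the shared stretches could be lost in mapping or split in counting. For MT1G this held at 75 bases only.

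The metallothionein genes sit in a row on chromosome 16, with MT1F 49.1 kb, MT1G 59.5 kb and MT1X 73.9 kb beyond the start of MT2A. The genes around the row had smaller log2 fold changes, apart from SLC12A3. Upstream, NUDT21, OGFOD1 and BBS2 had log2 fold changes of −0.03, −0.03 and −0.10. Downstream, NUP93 had −0.09 and HERPUD1 −0.06. None of these 5 reached an adjusted p under 0.05 in edgeR, the smallest being 0.0770 for NUP93. SLC12A3, a sodium-chloride cotransporter gene 257 kb away, had −1.01 with a standard error of 0.31, on 153 reads in all. Its adjusted p in edgeR was 0.0191, short of the 0.01 needed for a call, and the call came with some other settings. In others it was weaker, with an edgeR adjusted p of 0.102 without si_NC replicate 3 and 0.107 without si_GRB2 replicate 2. With limma on log2(FPKM + 1) the adjusted p was 0.268. GNAO1 had 16 reads and was not tested.

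**Figure D4:**
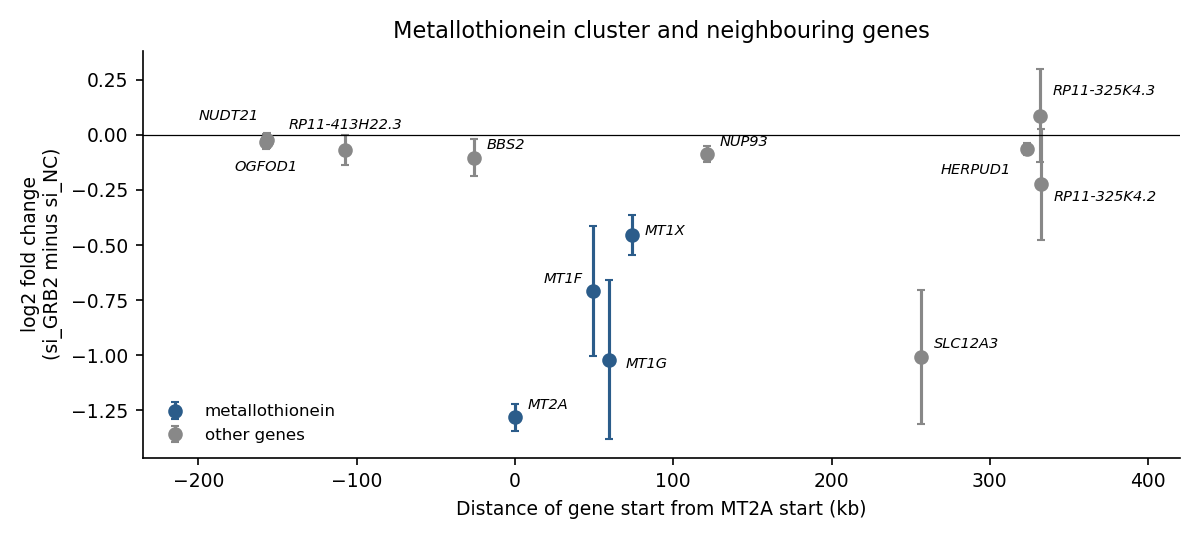
Log2 fold change (y axis, si_GRB2 minus si_NC, with standard errors) of every tested gene from NUDT21 to HERPUD1, against the distance of its start from the start of MT2A in kb (x axis). The 4 metallothioneins (blue) lie between −1.28 and −0.45. Of the other genes (grey), SLC12A3 stands at −1.01 and the rest lie between −0.22 and 0.09.

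SLC30A1, the zinc exporter of the plasma membrane, was higher in si_GRB2, opposite to the metallothioneins. SLC30A1 (ENSG00000170385.10, chromosome 1 from 211571568 to 211579161, minus strand) had 76.7, 73.9 and 75.1 CPM in si_NC and 102.8, 101.6 and 108.0 CPM in si_GRB2. The groups were far apart compared with the spread inside either. The log2 fold change was 0.47 (standard error 0.04), from 75.2 ± 1.37 to 104 ± 3.39 CPM (SD, n = 3 each), or 1.38-fold higher. With each library left out in turn it stayed between 0.44 and 0.49.

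MTF1, the zinc sensor itself, was also higher. MTF1 (ENSG00000188786.10, chromosome 1 from 37809574 to 37859592, minus strand) had 14.9, 14.5 and 12.5 CPM in si_NC and 17.6, 17.2 and 17.1 CPM in si_GRB2. The si_NC libraries were the more variable, and the third was the lowest. The log2 fold change was 0.31 (standard error 0.07), from 14.0 ± 1.30 to 17.3 ± 0.244 CPM (SD, n = 3 each), and it was 0.22 without si_NC replicate 3.

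Levels of different genes were compared per length, first in the FPKM of the deposited table. In si_NC, MT2A led with 49.1 ± 3.16 FPKM, followed by SLC30A1 with 10.3 ± 0.352, MT1X with 5.86 ± 0.241, MTF1 with 1.41 ± 0.0839, MT1G with 0.837 ± 0.0306 and MT1F with 0.357 ± 0.0569 (SD, n = 3 each). Each neighbour in this order was separated by more than the SD of both. In si_GRB2 the order was the same, but MT2A at 20.8 ± 2.28 FPKM stood much nearer to SLC30A1 at 14.6 ± 0.656, and MT1G (0.18 to 0.57 FPKM) overlapped MT1F (0.17 to 0.27 FPKM).

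The order depended on the length by which reads were divided. The FPKM table divides by the joined length of every annotated exon, which for 90% or more of genes with over 300 reads matched GENCODE 44 within 1% after one scaling factor per library. For MT1X that length is 1727 bases against an mRNA of 404 bases, for MT1F 1852 against 425, and for MT2A 914 against 401. SLC30A1 has the same 5893 bases in both. Per kilobase of the canonical mRNA, si_NC levels were 139 ± 4.0 CPM for MT2A, 31.2 ± 1.52 for MT1X and 12.8 ± 0.233 for SLC30A1 (SD, n = 3 each), so that MT1X lay above SLC30A1. MT1F at 1.93 ± 0.222 and MT1G at 1.92 ± 0.0919 CPM per kilobase no longer differed beyond their spread. MTF1, above both by FPKM, had a lower mean than either at 1.76 ± 0.163 CPM per kilobase, within an SD range that overlapped both. Differences between si_GRB2 and si_NC within a gene do not depend on this length.

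The wider zinc and metal genes were described from lists that hold none of the 8 genes, chosen with earlier results of these data known. Of 80 genes on these lists, 65 were tested, and 0 were called changed by edgeR or by DESeq2, against 2.52% of all genes. Without a limit on size, 15 were higher and 11 lower at an adjusted p under 0.05 in edgeR, a limit that 30.6% of all genes passed, and 33 had an unadjusted p under 0.05, as did 6229 of all 15801 genes. Their median log2 fold change was 0.02 and that of all genes 0.0019.

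Zinc importers of the SLC39A family bring zinc into the cytoplasm from outside or from organelles. Of 14 members, 11 were tested, with log2 fold changes between −0.33 and 0.26 around a median of 0.10. At an adjusted p under 0.05 in edgeR, 5 were higher and 2 lower in si_GRB2. Of all 15801 genes, 30.6% passed that limit, 2396 higher and 2442 lower. The same share stands beside the counts of the other lists below. SLC39A7, which releases zinc from the endoplasmic reticulum, went from 232 to 277 CPM, a log2 fold change of 0.26 (adjusted p = 7.99e-06 in edgeR). SLC39A13 had 0.25, SLC39A14 had 0.21, SLC39A6 had 0.19 and SLC39A10 had 0.14. SLC39A9 was lower, from 96.1 to 76.5 CPM (log2 fold change −0.33, adjusted p = 3.94e-06 in edgeR), and SLC39A1 had −0.10.

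Zinc exporters of the SLC30A family move zinc out of the cytoplasm. Beside SLC30A1, 7 of the exporters listed were tested, and 1 had an adjusted p under 0.05, SLC30A6 of the Golgi with a log2 fold change of 0.15 (adjusted p = 0.0189 in edgeR). That adjusted p was 0.0494 in DESeq2, 0.0826 in edgeR without si_GRB2 replicate 3 and 0.127 with limma on log2(FPKM + 1). The other exporters lay between 0.01 (SLC30A4) and 0.73, the last for SLC30A2 with 106 reads in all and a standard error of 0.39. The 0.47 of SLC30A1 was below the 0.73 of SLC30A2 and above the other exporters tested. Since SLC30A1 was picked with this comparison known, nothing is read from its rank.

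Of 5 genes linked to MTF1 outside the metallothioneins, 1 was lower and 0 higher at an adjusted p under 0.05. CSRP1, a LIM domain protein, was lower, from 660.5 to 520.8 CPM (log2 fold change −0.34, adjusted p = 3.77e-08 in edgeR), and SELENOH, NDRG1, PGF and GCLC did not reach that limit. Of 11 copper genes, 3 were higher and 2 lower at that limit. The copper exporter ATP7A had the largest value, 0.42 (adjusted p = 0.0103 in edgeR), and SCO2, which supplies copper to cytochrome c oxidase, had −0.37. SOD1, the copper and zinc superoxide dismutase, had 0.19 and the copper chaperone ATOX1 had −0.11.

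Genes of the stress lists, which hold genes induced by heavy metals and some regulators, moved in both directions, and none was called. Of 10 genes of the NRF2 and oxidative stress list, 2 were higher and 4 lower at an adjusted p under 0.05, with log2 fold changes from −0.24 (TXNRD1) to 0.23 (SRXN1). HMOX1, the heme oxygenase induced by cadmium and heme, had −0.18. Of 7 heat shock genes, HSPH1 had 0.27 and BAG3 had −0.16, and HSPA1A, HSPA1B, DNAJB1, HSPB1 and HSF1 did not reach that limit. Of 7 glucocorticoid-related genes tested, NR3C1, which encodes the receptor, had 0.23, TSC22D3 had 0.20 and PER1 had 0.20, and none was lower at that limit. SGK1, a kinase induced by glucocorticoids, had the value farthest from 0, −0.31 (adjusted p = 0.477 in edgeR, 138 reads in all), and FKBP5, another glucocorticoid target, had −0.09 (adjusted p = 0.229 in edgeR). KLF9 had 0.10 (adjusted p = 0.150 in edgeR) and DUSP1 had 0.09 (adjusted p = 0.291 in edgeR).

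**Figure D5:**
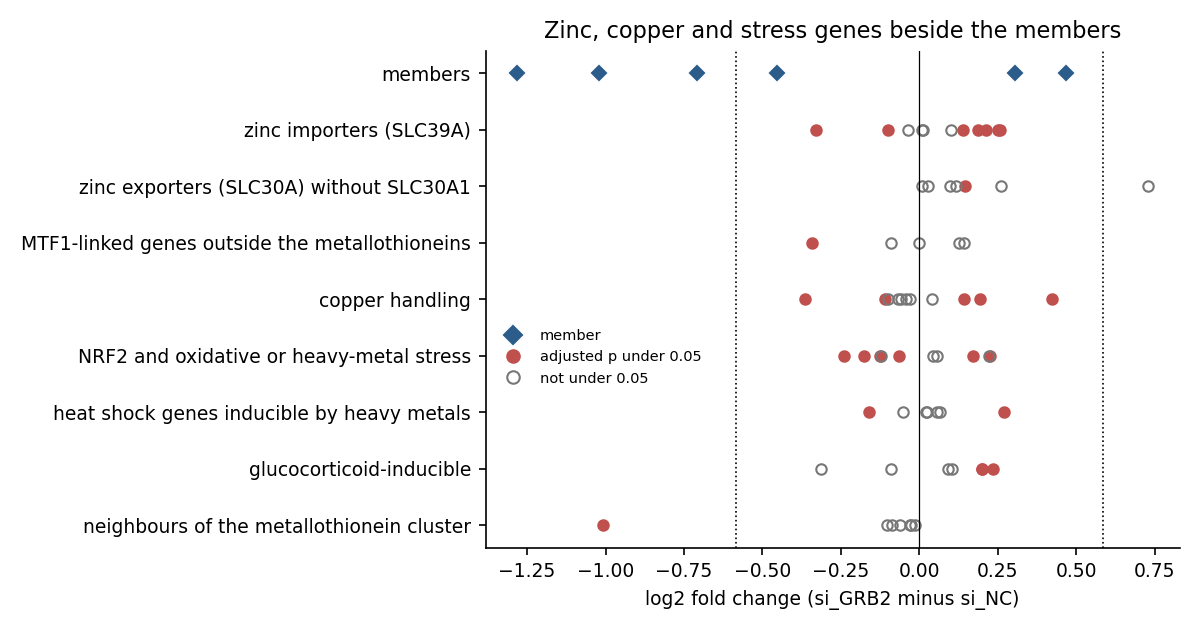
Log2 fold change (x axis, si_GRB2 minus si_NC) of the 6 genes (blue diamonds) and of the tested genes of each list (circles, red where the adjusted p was under 0.05). Dotted lines mark a fold change of 1.5. The 4 metallothioneins lie at −1.28 to −0.45, while the circles past the dotted lines are SLC12A3 at −1.01 and SLC30A2 at 0.73.

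The genes whose levels followed MT2A most closely over the 6 libraries, among 7227 genes with a mean of at least 20 CPM and leaving out metallothioneins, were JTB, SPC24, EXO1, FBLN1 and HLA-E. Their log2(CPM + 0.5) had Pearson correlations with those of MT2A between 0.998 (HLA-E) and 0.999 (JTB). The 6 libraries form 2 groups, and a gene that differs between them in the same way scores high, so this is a description only. All 5 moved less than MT2A, with log2 fold changes of −0.40 for JTB, −0.50 for SPC24, −0.44 for EXO1, −0.40 for FBLN1 and −0.43 for HLA-E.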

How the data were processed

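Poly(A) RNA of 3 si_NC and 3 si_GRB2 libraries was sequenced as strand-specific libraries. Reads were cleaned by the authors with FASTX-Toolkit and aligned to GRCh38 with HISAT2. The authors deposited the count of uniquely mapped reads per gene, not normalized, and FPKM, rounded. The counting tool, annotation release and use of strand are not given in the sources used here. Groups followed the library descriptions.

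edgeR 4.0.16 (R 4.3.3) scaled the counts by TMM, filterByExpr kept 15801 genes, and glmQLFTest compared the groups without a covariate, with Benjamini-Hochberg adjusted p-values over those genes. Standard errors are the estimate over the square root of F. The script was tested on simulated data. DESeq2 1.42.0, its size factors, other filters, a replicate block, limma 3.58.1 on log2(FPKM + 1) and log2(FPKM + 0.1), and leaving out each library were alternatives.

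Gene positions, exon lengths and transcripts came from GENCODE 44 (GRCh38), where 99.7% of gene identifiers were found, and promoters from RefSeq, where 4 of the 8 genes matched. Sequences were searched and figures drawn in Python 3.11.15 with Biopython 1.88 and matplotlib 3.10.9.

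The genes and lists were chosen with earlier results of these data known. The rule for named genes took the members, GRB2, zinc transporters called or with an adjusted p under 0.05, in each other list the genes called or else the one with the largest absolute log2 fold change, and the 5 genes most like MT2A. Further genes of the lists were named after their values were seen.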

Additional observations from a re-analysis of the deposited data

How the results depend on the processing

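The log2 fold change of MT2A lay between −1.33 and −1.19 and the direction of all 6 genes held in every alternative that gave a value. MT1G was not tested with at least 10 counts in every library, and MT1F and MT1G were not tested with a mean FPKM of at least 1. For low genes the pseudocount on FPKM mattered: MT1F moved to −0.15 and MT1G to −0.38 with limma on log2(FPKM + 1). The log2 ratio of summed metallothionein reads stayed between −1.14 and −0.996 except without MT2A, at −0.50. The log2 ratio of MT1X to SLC30A1 in si_NC was −0.81 by FPKM and turned to 1.29 per kilobase of mRNA, and that of MT1F to MT1G went from −1.23 to 0.010. That of MT1G to MTF1 went from −0.75 to 0.12 and that of MT1F to MTF1 from −1.98 to 0.13. These 4 ratios were chosen after seeing the data. The fixed lists held 1 called gene, SLC12A3, without a filter on low counts, with the replicate block, and at an adjusted p under 0.05, and 0 otherwise. Counts of list genes at an adjusted p under 0.05 are those of the main fit, and genes near that limit could miss it elsewhere. PER1, for example, had an adjusted p of 0.0223 in the main edgeR fit and 0.0914 in DESeq2. Over all genes, 398 were called, against 79 and 144 with limma on log2(FPKM + 1) and log2(FPKM + 0.1), and 96 with a mean FPKM of at least 1. The cause was not tested. Libraries with the same replicate number did not all deviate together (correlations −0.107 to 0.286) and not every library correlated best with its own number, so the numbers were not taken as pairs. A fit with the replicate block called 459 genes and kept the direction of all 6 genes. Depth limits MT1F and MT1G, with 106 and 94 reads in all.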
